A study of Mus musculus with 6 samples.

Results

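The caspases and the necroptosis proteins are the enzymes and effectors that carry out regulated cell death, and 8 of their genes were followed here in neonatal mouse cochleae cultured with or without neomycin. They were taken by gene symbol (Casp1, Casp2, Casp6, Casp8, Casp9, Casp12, Ripk3 and Mlkl), and all 8 were found among the 24421 symbols of the count table. RNA was sequenced from wild-type cochlear explants of mice at postnatal day 2. After 12 h in culture the damaged explants received neomycin, an aminoglycoside antibiotic toxic to hair cells (HCs), at 1 mM over 6 h, and then stayed 5 days longer in medium holding the thymidine analogue EdU (10 μM). Each group had 3 samples, and 6 to 8 cochleae were pooled for every sample. The label of each sample says control or neomycin, while the growth protocol, neomycin step included, is worded alike for all 6 samples. The explants had been freed of the stria vascularis anlage, the modiolus and the tectorial membrane before culture. They still held HCs, supporting cells (SCs), mesenchyme, glia, vessels and macrophages, so that a count sums over all of these. In such bulk RNA, fewer cells of a type and less RNA per cell cannot be told apart.

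Caspases are cysteine proteases made as inactive precursors. Initiator caspases (caspase-8 at death receptors, caspase-9 on the mitochondrial apoptosome, caspase-2 on the PIDDosome) are switched on by clustering on adaptor proteins. Caspase-8 and caspase-9 then cleave executioner caspases, the class to which caspase-6 belongs. Inflammatory caspases act differently: caspase-1, recruited to inflammasomes, matures interleukin-1β and interleukin-18 and opens gasdermin D pores, the lytic death called pyroptosis. When caspase-8 is blocked, RIPK3 can phosphorylate the pseudokinase MLKL, which then breaks the plasma membrane (necroptosis). Aminoglycosides are known to kill cochlear HCs largely by caspase-dependent apoptosis. Because activation of these proteins is mostly post-translational, their mRNA level is a supply of precursor and not a reading of activity.

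The 6 caspases share the stretch that holds the catalytic cysteine, shown here because it is what makes these genes a family. Of their RNA, only that of Casp1 changed by more than 1.5-fold after neomycin. The 24 bases below were read from the coding sequence of the GENCODE transcript with the longest coding sequence of each gene, from 5′ to 3′, and the capitals mark the codon of that cysteine.
Casp1: attcaggcaTGCcgtggagagaaa
Casp12: atgcaggccTGCagaggcagatat
Casp2: atccaagcaTGTcgtggagatgag
Casp8: attcaggctTGCcaaggaagtaac
Casp9: atccaggccTGCggtggtgagcag
Casp6: atccaggccTGTcggggtagccag
The cysteine is residue 284 of 402 in Casp1, 298 of 419 in Casp12, 320 of 452 in Casp2, 382 of 500 in Casp8, 325 of 454 in Casp9 and 146 of 276 in Casp6. Casp1 and the nearby Casp12, on the same strand of chromosome 9, were alike at 14 of the 24 bases. Casp1 and Casp2 were alike at 18, as were Casp1 and Casp9, and Casp6 and Casp9. The least alike were Casp2 and Casp12, at 12.

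Total counts per sample ran from 50471116 to 66068108, so that 1 count was worth between 0.0145 and 0.0192 CPM (read counts relative to the size of the library, scaled between libraries by the TMM method of edgeR). HC marker genes checked the treatment: 10 of 12 were called lower after neomycin, and their summed level went from between 816 and 961 CPM in control to between 287 and 342 CPM. Of the 12 SC markers 2 were called lower, Prox1 and Fgfr3 (log2 fold changes of -1.46 and -0.66), and 0 higher. The sum of the 12 lay between 1728 and 1747 CPM in control and between 1752 and 1913 CPM after neomycin. Gjb2 alone made up a large part of it, with means of 554 and 642 CPM, so the sum says little of the less abundant markers. A call here means an adjusted p under 0.05 and a fold change over 1.5 in edgeR's quasi-likelihood test across the 15988 genes with enough counts, with Benjamini-Hochberg adjustment. Nothing in the labels says how the pools were drawn, so p-values measure the spread between these pools.

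Casp1 was the only one of the 8 genes that passed the call. It rose 3.30-fold from a very low level, while the initiators Casp2, Casp8 and Casp9 and the relative Casp12 stayed within 6.37% of control in the fit. The executioner Casp6 was 19.3% higher, past an adjusted p of 0.05 but short of the fold threshold. Ripk3 was 1.35-fold lower in the fit without passing the test, and Mlkl varied so much between samples that a change of 1.5-fold either way lay inside its interval. One call among 8 genes stands beside 8.84% of all genes tested, 2.24% called higher and 6.6% called lower. Without the fold threshold 2 of the 8 passed, both higher, where 29% of all genes tested passed, 12.9% as higher and 16.1% as lower. The median log2 fold change of the 8 genes was 0.06, and that of all genes tested was -0.0041.

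**Figure D1:**
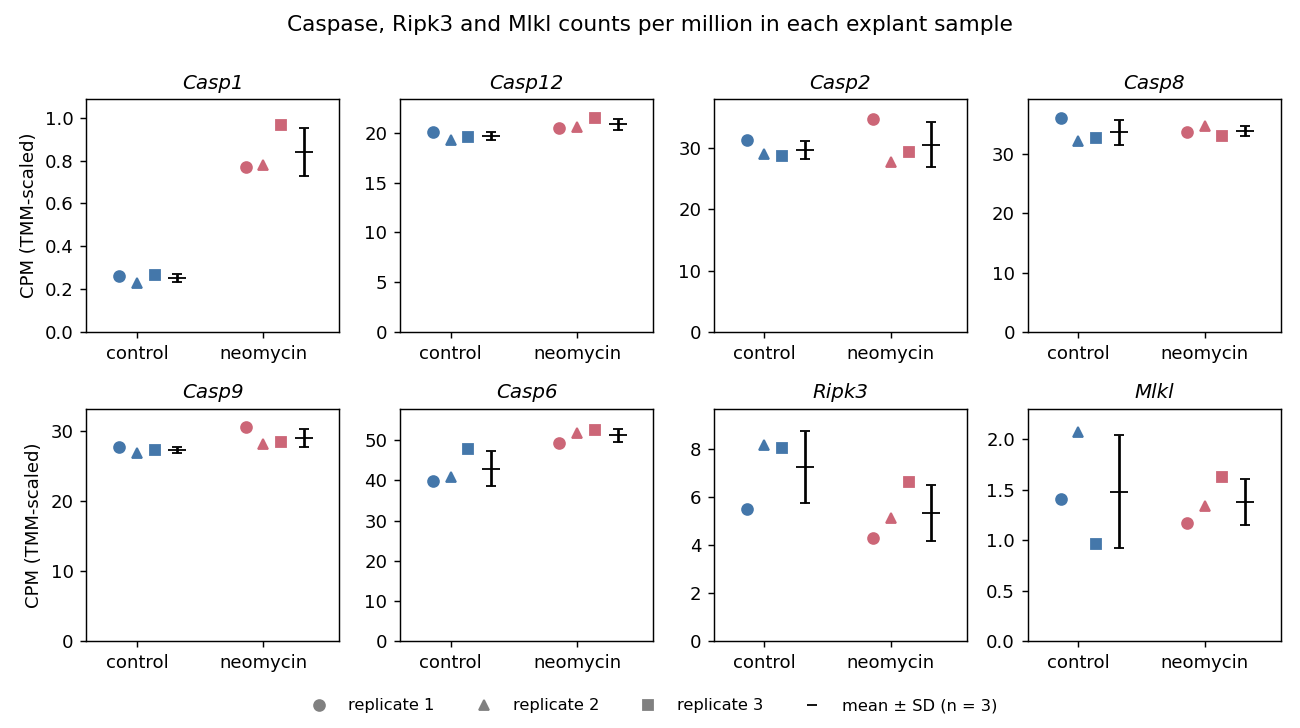
CPM of each gene (vertical axes from 0, each on its own scale) in the 3 control and the 3 neomycin samples, with marker shapes for the replicate number and the mean ± SD of 3 samples beside them. Casp1 is the gene whose groups stand far apart (0.230 to 0.267 against 0.772 to 0.968 CPM), while Casp2, Casp8, Ripk3 and Mlkl overlap.

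Of the inflammatory caspases, Casp1 encodes the protease of the inflammasome and lies on chromosome 9 of mm10 from 5298517 to 5307265. It had 18, 12 and 15 counts in control replicates 1, 2 and 3, and 41, 46 and 52 counts in neomycin replicates 1, 2 and 3. On the CPM scale these were 0.261, 0.230 and 0.267 in control and 0.772, 0.780 and 0.968 after neomycin. Every neomycin sample therefore held more Casp1 RNA than every control sample, and neomycin replicate 3 held the most. The means were 0.253 ± 0.0198 and 0.840 ± 0.111 CPM (SD, n = 3 each), and the log2 fold change was 1.72 (standard error, SE, 0.40, 95% interval 0.85 to 2.59, adjusted p = 0.00795, edgeR). With so few reads the interval is wide, and the call held in each of the 14 alternative fits in which Casp1 was tested, with log2 fold changes between 1.47 and 1.78 and adjusted p-values between 0.0023 and 0.0417. It was not tested where a mean of at least 1 CPM was required.

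Casp12, the other inflammatory caspase, is linked in the mouse to the endoplasmic reticulum and lies on chromosome 9 from 5345430 to 5373032. It was found at 20.1, 19.2 and 19.6 CPM in control replicates 1 to 3 and at 20.5, 20.6 and 21.5 CPM in neomycin replicates 1 to 3. All neomycin samples were above all control samples, but by very little: the log2 fold change was 0.09 (95% interval -0.10 to 0.27, adjusted p = 0.466, edgeR). Its interval lay wholly inside the 1.5-fold threshold of 0.58, so a rise like that of the nearby Casp1 was not seen in it.

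The promoter of Casp1 is shown because no other of the 8 genes passed the call. The RefSeq window covers 250 bases before the annotated start and 50 from it on, chr9:5298267-5298566 of GRCm38.p6, on the plus strand.
Casp1 promoter: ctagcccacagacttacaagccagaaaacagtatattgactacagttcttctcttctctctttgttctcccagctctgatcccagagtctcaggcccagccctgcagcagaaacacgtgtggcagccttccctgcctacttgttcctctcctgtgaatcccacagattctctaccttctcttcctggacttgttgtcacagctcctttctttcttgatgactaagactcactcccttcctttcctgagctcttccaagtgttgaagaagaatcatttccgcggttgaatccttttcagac
Known binding motifs were searched on both strands, in this window and in those of the other 7 genes. These were the interferon-stimulated response element (GAAA, any 2 bases, GAAA), the AP-1 site TGANTCA, the NF-κB site (GGGA, any 2 bases, TTCC) and the TATA box TATAAA. They are held by 3.44%, 7.81%, 1.47% and 13.6% of the 32851 promoter windows of the table, and by 0 of the 8 windows here, which says only that these letters are not in these windows. The Casp8 window, chr1:58802252-58802551, lies inside the gene, so the sequence at its GENCODE start of 58795374 was not searched.

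Of the initiator caspases, Casp8, the protease of death receptor complexes on chromosome 1 from 58795374 to 58847503, showed the smallest difference. It was at 36.0, 32.1 and 32.7 CPM in control replicates 1 to 3 and at 33.7, 34.8 and 33.1 CPM in neomycin replicates 1 to 3. The highest value was that of a control sample and the groups overlapped, with a log2 fold change of 0.01 (95% interval -0.16 to 0.18, adjusted p = 0.944, edgeR). Casp9, the apoptosome caspase on chromosome 4 from 141793612 to 141815976, was at 27.8, 26.9 and 27.3 CPM in control and at 30.6, 28.2 and 28.5 CPM after neomycin. The groups did not overlap, yet their distance was small beside the spread of the neomycin samples. The log2 fold change of Casp9 was 0.09 (95% interval -0.08 to 0.26, adjusted p = 0.425, edgeR). Exons of Cela2a and Ctrc, on the opposite strand, share bases with those of Casp9, and the strand setting of the counting is not stated. Casp2, the initiator of the PIDDosome on chromosome 6 from 42264985 to 42282508, was at 31.4, 29.0 and 28.7 CPM in control and at 34.7, 27.6 and 29.3 CPM after neomycin. Neomycin samples held both the highest and the lowest value of Casp2, and the log2 fold change was 0.04 (95% interval -0.17 to 0.25, adjusted p = 0.784, edgeR). For all these initiators the interval excluded a 1.5-fold change in either direction.

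Casp6, an executioner caspase known for cutting nuclear lamins, lies on chromosome 3 from 129901425 to 129914103. It was at 39.9, 41.0 and 47.9 CPM in control replicates 1 to 3 and at 49.3, 51.8 and 52.4 CPM in neomycin replicates 1 to 3. All neomycin samples were above all control samples, with control replicate 3 close below them. The means were 42.9 ± 4.36 and 51.2 ± 1.64 CPM (SD, n = 3 each), a log2 fold change of 0.25 (SE 0.08, 95% interval 0.08 to 0.43, adjusted p = 0.0365, edgeR). Left out in turn, 4 of the 6 samples took the adjusted p over 0.05 while the estimate stayed positive. The log2 fold change was 0.21 without control replicate 1 (adjusted p = 0.116), 0.23 without control replicate 2 (0.133), 0.25 without neomycin replicate 2 (0.122) and 0.24 without neomycin replicate 3 (0.110). With library totals in place of TMM it was 0.19 (adjusted p = 0.0846). The log2 fold change of Casp6 ran from 0.19 to 0.35 over all 15 alternatives, and in 10 of them its adjusted p was under 0.05.

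The necroptosis genes were the pair whose fitted changes pointed downward, neither of them past the test. Ripk3 encodes the kinase of the necrosome and lies on chromosome 14 from 55784995 to 55788865. It was at 5.51, 8.17 and 8.02 CPM in control replicates 1 to 3 and at 4.29, 5.12 and 6.61 CPM in neomycin replicates 1 to 3. The groups overlapped through control replicate 1, which lay below neomycin replicate 3. The means were 7.23 ± 1.5 and 5.34 ± 1.17 CPM (SD, n = 3 each), and the log2 fold change was -0.43 (SE 0.19, 95% interval -0.86 to -0.01, adjusted p = 0.111, edgeR). Single samples decided this value: without control replicate 1 it was -0.59 (adjusted p = 0.0338) and without neomycin replicate 3 it was -0.62 (adjusted p rounding up to 0.05), both past the call, while without neomycin replicate 1 it was -0.30 (adjusted p = 0.287). Corrected for exon length, the value of Ripk3 was -0.58 (adjusted p = 0.0317), just short of the fold threshold.

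Mlkl, whose product perforates the membrane, lies on chromosome 8 from 111311797 to 111338177. It was at 1.41, 2.07 and 0.961 CPM in control replicates 1 to 3 and at 1.17, 1.34 and 1.62 CPM in neomycin replicates 1 to 3. The 3 neomycin samples fell inside the range of the control samples, which differed among themselves by more than the groups did. The log2 fold change was -0.10 (SE 0.32, 95% interval -0.80 to 0.60, adjusted p = 0.840, edgeR). It became 0.22 without control replicate 2 and 0.0027 without neomycin replicate 1.

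Control and neomycin values were fully apart for 4 of the 8 genes (Casp1, Casp6, Casp9 and Casp12), in each case higher after neomycin. This was so for 43.5% of all genes tested, 21% as higher and 22.5% as lower, so that such a separation was common in these samples.

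**Figure D2:**
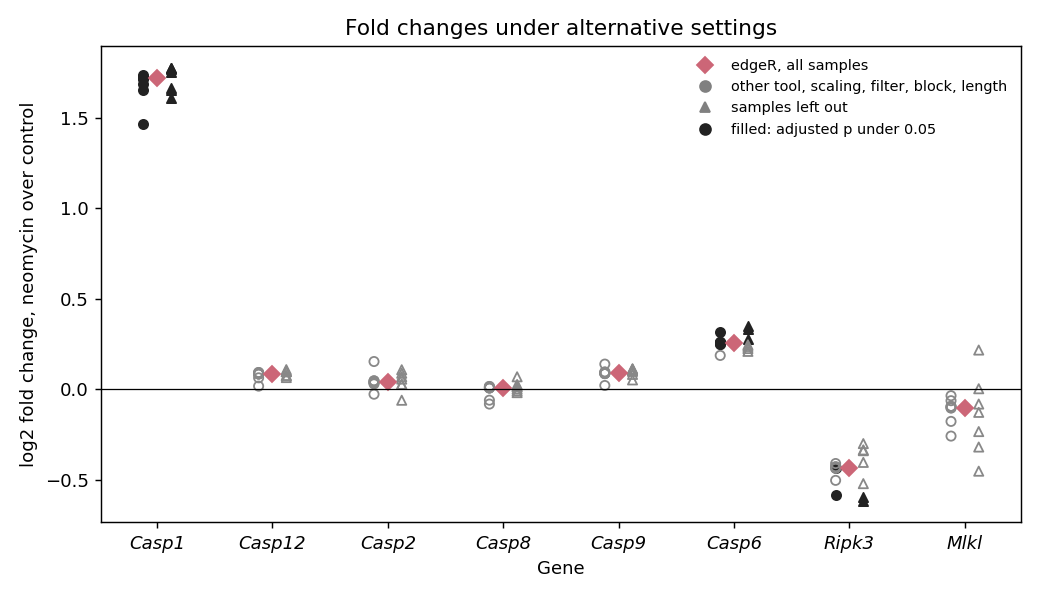
Log2 fold changes of the 8 genes under each setting (vertical axis), with diamonds for the edgeR fit of all samples, circles for other tools, scalings, filters, the replicate block and the gene length correction, and triangles for fits with samples left out. Filled symbols have an adjusted p under 0.05: those of Casp1 are all filled and above 1.4, those of Casp2, Casp8, Casp9, Casp12 and Mlkl are all open, and those of Casp6 and Ripk3 are mixed.

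Levels of different genes were set beside each other per kilobase of merged exon, on the TMM scale. In control samples Casp8 was highest, at 11.6 ± 0.731 CPM per kilobase (SD, n = 3), followed by Casp6 at 7.69 ± 0.780. Casp9 at 5.26 ± 0.0861 and Casp12 at 5.12 ± 0.105 came next, and the ranges of this pair overlapped. Casp2 stood at 4.21 ± 0.207 and Ripk3 at 3.16 ± 0.653 CPM per kilobase. Mlkl at 0.642 ± 0.242 and Casp1 at 0.169 ± 0.0132 CPM per kilobase were the lowest, and neighbours other than Casp9 and Casp12 had ranges that did not overlap. After neomycin Casp1 reached 0.561 ± 0.0742 CPM per kilobase, within the range of Mlkl (0.507 to 0.703) in the same samples, and the ranges of Casp9 and Casp12 still overlapped. The upper part of this order depends on the length used. With the length of the single transcript with the longest coding sequence, Casp6 was at 29.5 and Casp8 at 18.2 CPM per kilobase, followed by Casp2, Casp12 and Casp9 at 8.41, 7.41 and 7.02. Ripk3, Mlkl and Casp1 remained the lowest 3 with either length.

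**Figure D3:**
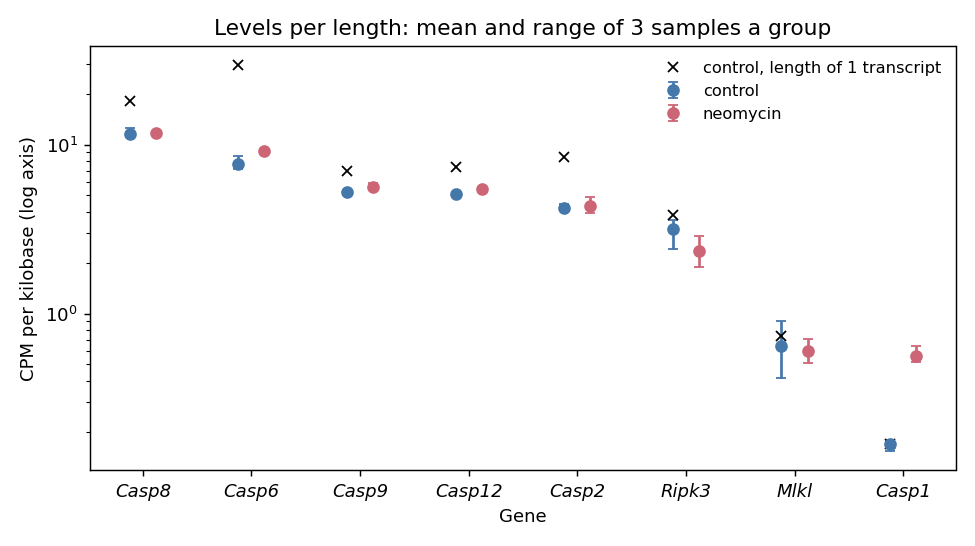
CPM per kilobase of merged exon (log axis) for each gene in control and neomycin samples, as the mean with the range of 3 samples, and crosses for the control mean over the length of 1 transcript. Casp1 moves from 0.169 to 0.561, next to Mlkl, while the order of Casp8, Casp6, Casp9, Casp12 and Casp2 is the same in both groups with merged exons and changes with the crosses.

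RNA of some macrophage markers moved with the same contrast, and macrophages express Casp1 and inflammasome genes. Of 12 macrophage markers, 5 were called higher (Cd68, C1qa, C1qc, Tyrobp and Mrc1) and 0 lower, 10 had a positive log2 fold change, and the median was 0.53. Their summed level ran from 103 to 134 CPM in control and from 147 to 181 CPM after neomycin, and none of the 12 was at 0. C1qa, C1qb and C1qc made up a large part of it, with control means of 19.8, 20.5 and 20.5 CPM. The sum therefore says little of the less abundant markers. The mean of that sum was 1.44-fold higher after neomycin, while the mean Casp1 CPM was 3.33-fold higher. For every 100 CPM of these markers there were 0.253, 0.197 and 0.199 CPM of Casp1 in control replicates 1 to 3 and 0.524, 0.432 and 0.534 CPM in neomycin replicates 1 to 3, groups that did not overlap. Csf1r and Ptprc, which define the macrophage lineage and leukocytes at large, had log2 fold changes of -0.05 and 0.20 (adjusted p = 0.799 and 0.613, edgeR). The part of macrophages in the rise of Casp1 was not tested.

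**Figure D4:**
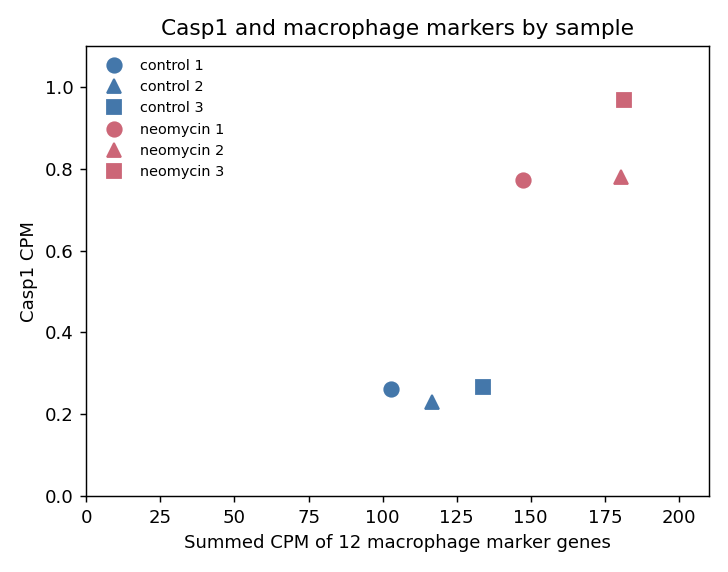
Casp1 CPM (vertical) against the summed CPM of 12 macrophage marker genes (horizontal) in each sample, with colors for the group and shapes for the replicate number, both axes from 0. The neomycin samples lie above and to the right of all control samples, at 147 to 181 CPM of markers and 0.772 to 0.968 CPM of Casp1.

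The summed level of markers of other leukocytes was highest in replicate 3 of each group. Of 9 markers of neutrophils, lymphocytes, mast cells and their like, 4 stayed under 0.1 CPM in every sample and Ncr1 was at 0 counts in all. Their sum was 7.24 CPM in control replicate 3 and 12.3 CPM in neomycin replicate 3, against at most 1.04 CPM in the remaining samples. The neutrophil genes S100a8 and S100a9 made up most of it, with 138 and 258 counts in control replicate 3 and 226 and 402 in neomycin replicate 3, where other samples had at most 10 and 12. Ly6g, a further marker written in this list, was not among the symbols of the count table. The highest counts of the lymphocyte genes Cd3e, Cd3g and Cd79a lay elsewhere. They were 16 in neomycin replicate 1, 20 in control replicate 1 and 25 in control replicate 2. Without replicate 3 of both groups the log2 fold change of Casp1 was 1.66 (adjusted p = 0.0417, edgeR).

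The 3 genes whose log2 CPM was most like that of Casp1 over the 6 samples, among 14036 genes with a mean of at least 1 CPM, were Atg7, Sh3bgrl3 and Zfp524. Their Pearson correlations with Casp1 were 0.999, 0.998 and 0.997, a description over 6 points that fall into 2 groups. Atg7, an enzyme of autophagy, differed by only 0.28 on the log2 scale (37.6 ± 0.502 to 45.8 ± 0.736 CPM, SD, n = 3, adjusted p = 0.00903, edgeR). Sh3bgrl3 and Zfp524 had 0.41 and 0.44.

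To place the 8 genes in their pathways, 57 other cell death genes were written in lists by role, of which 50 had enough counts to be tested. Only 3 passed the call, Gsdmd and Zbp1 higher and Tnfsf10 lower, and 5 were higher and 4 lower at an adjusted p under 0.05 with any fold. Their median log2 fold change was 0.0083, with 26 above 0 and 24 below. Expressed as shares, 4% of the tested list genes were called higher and 2% lower, beside the 2.24% and 6.6% of all genes. With any fold the shares over all genes tested were 12.9% higher and 16.1% lower.

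The inflammasome and pyroptosis list, whose genes act upstream and downstream of caspase-1, had the highest median of these lists, 0.43 over the 8 genes tested, with 1 called higher and 0 lower. Of all genes tested 2.24% were called higher and 6.6% lower. The median of the macrophage markers was 0.53 in the same samples, and the part of macrophages in the values of this list was not tested. Gsdmd, whose product gasdermin D forms the pore once cleaved, was at 6.40, 5.79 and 5.59 CPM in control replicates 1 to 3 and at 8.66, 11.3 and 9.89 CPM in neomycin replicates 1 to 3. The groups did not overlap, and Gsdmd rose by 0.75 on the log2 scale (SE 0.14, 95% interval 0.45 to 1.04, adjusted p = 0.00224, edgeR). Pycard, the adaptor ASC that joins sensors to caspase-1, was at 7.68, 6.75 and 9.20 CPM in control and at 10.9, 12.7 and 9.72 CPM after neomycin, 0.50 higher on the log2 scale (adjusted p = 0.0232, edgeR) but under the fold threshold. The groups of Pycard were separated by little, control replicate 3 lying just below neomycin replicate 3. Leaving out control replicate 1 took its adjusted p to 0.0516, which was 0.0989 without control replicate 2 and 0.120 without neomycin replicate 2, and without control replicate 3 it passed the call (log2 fold change 0.63, adjusted p = 0.00798). Dfna5, the older symbol of gasdermin E, and Casp4, a receptor of intracellular endotoxin, had log2 fold changes of 0.10 (95% interval -0.28 to 0.48) and 0.01 (95% interval -0.41 to 0.44). The sensor genes were scarce. Nlrp3 averaged 0.465 CPM in control and 0.344 CPM after neomycin (log2 fold change -0.43, adjusted p = 0.555, edgeR). Aim2 averaged 0.252 CPM in control and 0.478 CPM after neomycin (log2 fold change 0.93, adjusted p = 0.207, edgeR). Nlrp1a, Nlrp1b, Nlrc4 and Mefv had too few counts to be tested. Of the cytokine substrates of caspase-1, Il1b also had too few counts, with 9, 9 and 2 in control and 0, 0 and 3 after neomycin. Il18 was at 3.14, 3.74 and 2.94 CPM in control replicates 1 to 3 and at 4.03, 5.25 and 4.64 CPM in neomycin replicates 1 to 3. Its groups did not overlap, and its log2 fold change of 0.51 (95% interval 0.11 to 0.90, adjusted p = 0.0522, edgeR) missed the threshold. Txnip, whose product can bind NLRP3, was 0.37 higher on the log2 scale (adjusted p = 0.0112, edgeR), under the fold threshold, and Nek7, a partner of NLRP3, differed by -0.14 on that scale (adjusted p = 0.198, edgeR). The sensors, the cytokines, Txnip and Nek7 were chosen for mention after their values were seen.

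Among the necroptosis regulators 10 were tested, 1 called higher and 0 lower. With any fold, 1 was higher and 2 were lower at an adjusted p under 0.05, where 12.9% and 16.1% of all genes tested were. The 2 lower were Tnfaip3 and Cyld, with log2 fold changes of -0.44 and -0.32 (adjusted p = 0.00377 and 0.00898, edgeR). Their groups did not overlap. Both were under the fold threshold and were named after their values were seen. Zbp1, a nucleic acid sensor that can engage RIPK3, was at 5.41, 5.94 and 4.66 CPM in control replicates 1 to 3 and at 6.01, 9.73 and 10.4 CPM in neomycin replicates 1 to 3. Neomycin replicate 1 lay barely above the controls, and the log2 fold change was 0.71 (SE 0.19, 95% interval 0.29 to 1.12, adjusted p = 0.0172, edgeR). Without neomycin replicate 2 or replicate 3 its adjusted p was 0.0823 or 0.0748. Ripk1, the kinase upstream of RIPK3, showed a log2 fold change of -0.10 (95% interval -0.27 to 0.06, adjusted p = 0.330, edgeR).

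Of the death receptors, ligands and adaptors, 10 were tested, 0 called higher and 1 lower. Tnfsf10, the ligand TRAIL, was at 1.33, 2.17 and 0.765 CPM in control replicates 1 to 3 and at 0.678, 0.475 and 0.503 CPM in neomycin replicates 1 to 3, and its log2 fold change was -1.36 (SE 0.41, 95% interval -2.25 to -0.48, adjusted p = 0.0261, edgeR). That call was lost without control replicate 2 (-0.93, adjusted p = 0.164), neomycin replicate 2 (-1.26, 0.0957) or neomycin replicate 3 (-1.30, 0.0737). Of 10 endothelial markers 6 were called lower and 0 higher in the same samples, and none of them was at 0. Their summed level ran from 320 to 360 CPM in control and from 307 to 360 CPM after neomycin. Most of that sum was Emcn, which was not called (means of 252 and 273 CPM). Pecam1 and Cdh5, both called lower, went from means of 9.78 and 8.81 CPM to 1.49 and 2.12 CPM. The part of endothelial cells in the fall of Tnfsf10 was not tested. The adaptor Fadd differed by 0.17 on the log2 scale (adjusted p = 0.239, edgeR), and Cflar, whose product c-FLIP holds caspase-8 in check, had -0.19 (adjusted p = 0.0661, edgeR).

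None of the 8 apoptosome and mitochondrial genes, of the 5 inhibitors of apoptosis or of the 8 caspase substrates passed the call, nor did Casp4. Of these 22 genes 1 was higher and 1 lower at an adjusted p under 0.05 with any fold, beside 12.9% and 16.1% of all genes tested. They were Diablo and Birc6, with log2 fold changes of 0.36 and -0.48 (adjusted p = 0.00972 and 0.0021, edgeR). Apaf1, the scaffold on which caspase-9 is activated, had a log2 fold change of -0.12 (95% interval -0.30 to 0.07). Xiap, which binds and blocks caspase-9, had -0.23 (95% interval -0.45 to -0.01, adjusted p = 0.103, edgeR).

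**Figure D5:**
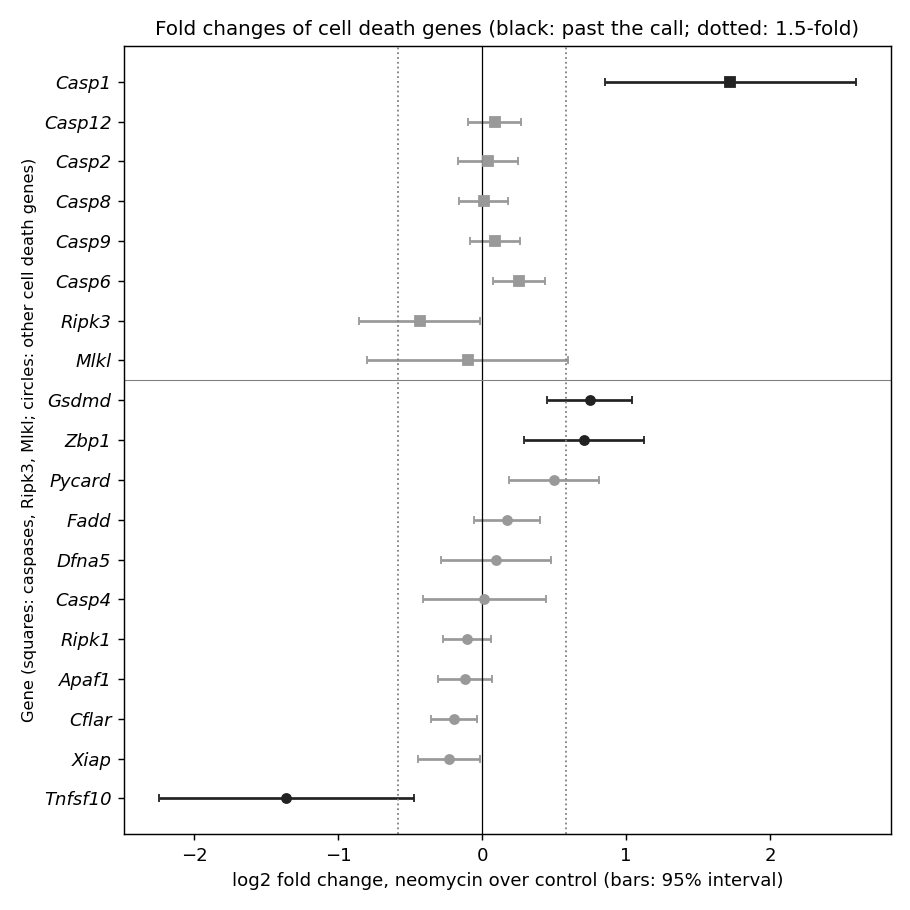
Log2 fold change of neomycin over control (horizontal axis) with its 95% interval for the 8 genes (squares) and for 11 other cell death genes (circles), black where the call was passed, with dotted lines at 1.5-fold. Casp1, Gsdmd and Zbp1 lie to the right and Tnfsf10 to the left in black, while the initiator caspases sit near 0 with intervals inside the dotted lines.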

How the data were processed

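Cochlear explant RNA of 3 control and 3 neomycin samples was analysed. Per the labels and methods, the authors trimmed reads with Trimmomatic 0.23, aligned them to mm10 with HISAT2 and counted them per gene symbol with HTSeq. The authors deposited these counts without normalization. The strand setting is not given in the sources used here, so reads of overlapping genes on opposite strands may be mixed.

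Counts were filtered (filterByExpr), TMM-scaled and tested with edgeR 4.0.16 (quasi-likelihood, Benjamini-Hochberg over all 15988 genes) under R 4.3.3. Alternatives used DESeq2 1.42.0, limma-voom 3.58.1, other scalings and filters, a replicate block, samples left out, and a lowess correction (span 0.3) on exon length, known for 99.2% of tested genes. Standard errors are the log2 fold change over the square root of F, and intervals use the t quantile with the degrees of freedom of that test. Total counts ran from 50471116 to 66068108. Intervals on folds cover the spread between samples. Exons and coordinates are from GENCODE M21 (GRCm38). On simulated counts of 15988 genes, 175 of 200 genes changed by 1.5 on the log2 scale were recovered with 7 false calls. Smaller changes, such as those near the fold threshold, were not simulated.

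The 8 genes and the lists were chosen with earlier results of these data known. Some list genes are not reported here and enter no list count. Genes named are the 8, 9 fixed list genes, list genes past the call and, for each of the 8 past the call, the 3 genes most correlated with it. Marker genes and further cell death list genes named beside them were chosen after their values were seen. Further marker lists (neurons, Schwann cells and glia, mesenchyme) had 4, 1 and 1 genes called lower and 0, 1 and 1 called higher, of 10 each.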

Additional observations from a re-analysis of the deposited data

How the results depend on the processing

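Casp1 kept its call in all 14 alternatives that tested it. Of the other 7 genes, Ripk3 alone reached the call, as 1 gene lower without control replicate 1 or neomycin replicate 3 (0 otherwise, so the range over samples left out is 0 to 1). Genes called higher among the 8 numbered 0 with a mean of at least 1 CPM, where Casp1 was not tested, and 2 without a fold threshold. Estimates changed sign for Casp2 (-0.028 with library totals, -0.061 to 0.11 with samples left out), Casp8 (-0.061 with library totals, -0.082 with the length correction, -0.019 to 0.069 with samples left out) and Mlkl (-0.45 to 0.22 with samples left out), and the cause was not tested. In the other lists, Casp4 turned to -0.057 with library totals, -0.0027 with the replicate block and -0.017 with the length correction, and ran from -0.092 to 0.18 with samples left out. Apaf1, Ripk1 and Cflar turned to 0.045, 0.038 and 0.026 with the length correction, and Dfna5 ran from -0.0013 to 0.18 with samples left out. List genes called lower numbered 0 with limma-voom or a mean of at least 1 CPM, 4 without a fold threshold, and 0 to 1 without single samples. List genes called higher numbered 5 without a fold threshold and 1 to 3 without single samples, 1 without neomycin replicate 2 or replicate 3. Over all genes, 358 were called higher in the main analysis, 233 with library totals, 233 with the length correction, 2058 without a fold threshold, and from 237 (without control replicate 2) to 513 (without control replicate 3) with samples left out. Those called lower numbered 1055, and 2571 without a fold threshold. Library totals shifted the median log2 fold change of all genes to -0.07.

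The replicate block, tried because both groups are numbered 1 to 3, gave 1 of the 8 genes called higher and 0 lower, with 1.72 for Casp1 (adjusted p = 0.0111, edgeR) and -0.44 for Ripk3 (adjusted p = 0.0308, edgeR, under the fold threshold). Same-numbered samples deviated together with correlations of 0.165, 0.0264 and 0.0949. Control replicate 2 correlated slightly more with neomycin replicate 3 (0.0325) than with its own number. S100a8 and S100a9 were high in replicate 3 of both groups. The numbers were not taken as pairs in the main fit, and whether they mark pairs was not settled. With the block, Xiap and Cflar also had an adjusted p under 0.05 (0.0153 and 0.0235, edgeR), both under the fold threshold. Leaving out replicate 3 of both groups and the transcript lengths were chosen after the data were seen. Casp1 rested on the fewest counts of the 8 genes, 12 to 52 per sample.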
